A study of Mus musculus with 2 samples.

Results

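Wt1, the gene for the Wilms tumour zinc-finger protein, and its 8 annotated transcripts were followed in total RNA from embryonic mouse kidney. The gene was found by its identifier among 43346 genes in the gene tables, and every transcript that carries that gene identifier was taken from the 103639 transcripts in the transcript tables. The samples were 2 libraries, replicates 1 and 2 of 1 group. Each came from 2 kidneys of 1 embryo of strain B6NCrl at embryonic day 14.5, with no treatment or mutation, and started from 10 ng of RNA longer than 200 nt. The labels call each sample a pool of males and females and also describe it as the kidneys of a single pup, and both statements are given here as they stand. No second condition was measured, so the comparisons below are between transcripts, between libraries and with other genes, and with 2 samples of 1 group no difference could be tested.

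Wt1 is a transcription factor that nephron progenitors need to survive and to become epithelium, and that podocytes, the filtering cells of the glomerulus, keep throughout life. Its RNA is varied by 2 splice choices and at its start. Exon 5 inserts a short stretch ahead of the zinc fingers and is found in placental mammals. A choice between 2 donor sites at the end of exon 9 adds or leaves out the residues lysine, threonine and serine (KTS) between the third and the fourth zinc finger. The form without KTS binds DNA well, whereas the form with KTS binds it poorly and is associated with RNA and splicing factors. In human, mutations that lower the KTS form cause Frasier syndrome, which affects podocytes and the gonad. A further first exon inside intron 1, described in human as the start of the shortened AWT1 protein, replaces exon 1 and with it much of the amino-terminal part of the protein.

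The sequences that define the 2 splice choices are shown because every share reported below rests on telling them apart. They are from GENCODE transcripts on GRCm38 (chromosome 2, plus strand). The first pair spans the join of exons 9 and 10 (chr2:105169986-105172246), and capitals mark the 9 nt that only the longer form of exon 9 holds.
Wt1-205, with KTS: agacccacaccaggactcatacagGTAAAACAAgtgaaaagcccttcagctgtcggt
Wt1-202, without KTS: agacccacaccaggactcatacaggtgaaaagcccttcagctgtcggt
The second pair spans exons 4 to 6 (chr2:105143139-105163348), and capitals mark the whole of exon 5.
Wt1-205, with exon 5: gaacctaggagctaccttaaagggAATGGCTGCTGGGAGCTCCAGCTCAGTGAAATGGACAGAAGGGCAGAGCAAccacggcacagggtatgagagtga
Wt1-201, without exon 5: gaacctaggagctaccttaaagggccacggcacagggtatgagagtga

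In mm10 coordinates Wt1 (ENSMUSG00000016458.9) lies on the plus strand of chromosome 2, from 105126529 to 105173616. Exon 5 (105144142 to 105144192) is 51 nt long, wholly coding, and adds 17 residues. The longer form of exon 9 (105169926 to 105170018) is 93 nt long and the shorter form, ending at 105170009, is 84 nt long, both wholly coding. A search of the translated models for the C2H2 pattern found 4 zinc fingers in Wt1-205, in exons 7, 8, 9 and 10. The linker between the third and the fourth was 10 residues long in Wt1-205 and Wt1-201, which hold KTS, and 7 residues long in Wt1-202, which does not, while the linkers before it were 7 residues long in all 3. Exon 1 (105126529 to 105127442) is 914 nt long with 646 coding nt, and its coding stretch in Wt1-205 opens with a CTG codon. The alternative first exon, called exon 1a here (105130883 to 105131152), begins 4354 nt downstream, is 270 nt long and holds only 10 coding nt.

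Of the 8 models, 3 are complete coding transcripts. Wt1-205 (3090 nt, 517 residues) begins in exon 1 and holds exon 5 and KTS. Wt1-201 (2395 nt, 288 residues) begins in exon 1a, lacks exon 5 and holds KTS. Wt1-202 (2441 nt, 302 residues) begins in exon 1a, holds exon 5 and lacks KTS. Wt1-203, Wt1-204 and Wt1-207 are incomplete coding models that begin inside exon 1 and lack exon 5, and Wt1-207 lacks exon 4 as well. Of these, Wt1-204 lacks KTS and the other 2 hold it. Wt1-206 and Wt1-208 are models with a retained intron and no coding sequence. Wt1-208 ends 2 nt into the 9 nt that separate the forms of exon 9, so it was placed in neither.

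**Figure D1:**
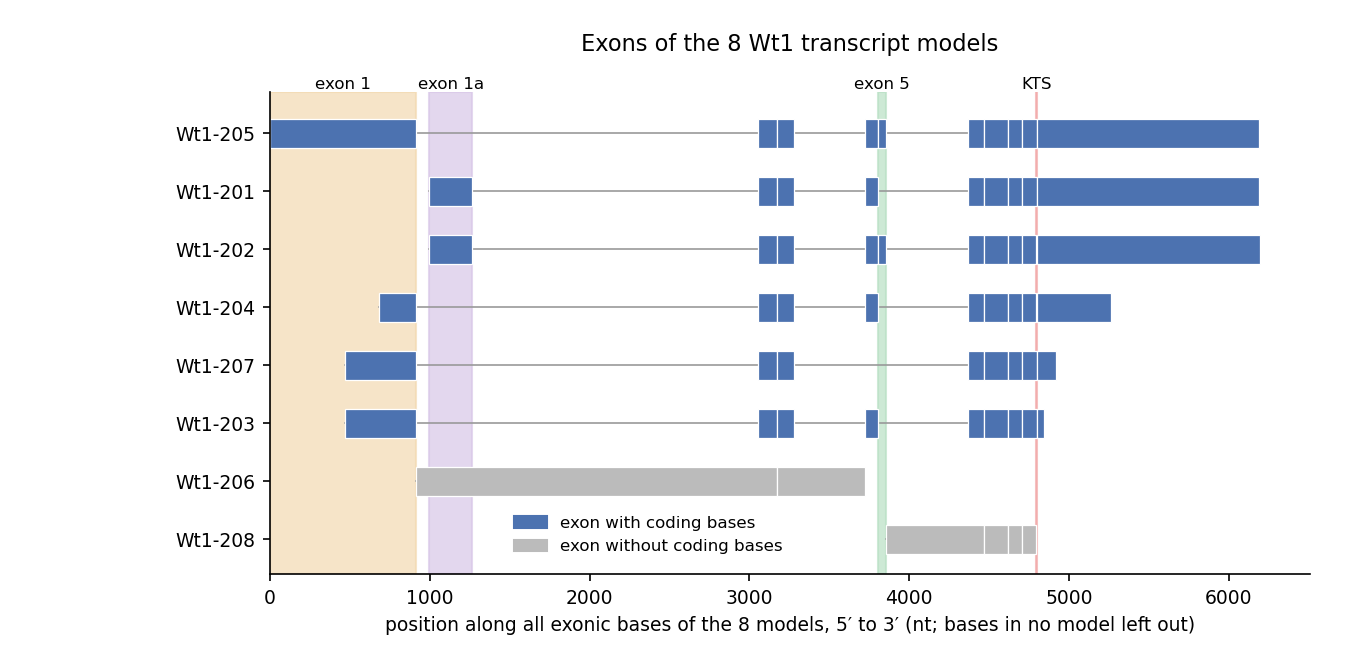
The exons of the 8 Wt1 transcript models are drawn to scale along the exonic bases of all models together, in nt from the 5′ end, with bases that belong to no model left out. Blue blocks hold coding bases and grey blocks do not, and shaded bands mark exon 1, exon 1a, exon 5 and the 9 nt of KTS. No model that begins in exon 1 and holds exon 5 lacks KTS, and none that begins in exon 1a combines exon 5 with KTS.

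Wt1 was among the more abundant RNAs of protein-coding genes in both libraries. Its level in TPM, an abundance per unit of transcript length scaled to a fixed sum in each library, was 128.74 in replicate 1 and 81.51 in replicate 2. The mean was 105 ± 33.4 TPM (SD, n = 2). The deposited credibility bounds, which cover the estimate within 1 library at a level not given in the sources used here, ran from 122 to 129.9 TPM in replicate 1 and from 77.7 to 82.8 TPM in replicate 2, so they did not overlap. The estimates rest on 6244 and 4641 reads out of 28429080 and 27758872 on genes, and the deposited standard deviation of the gene's count was 0 in both. Among 21474 protein-coding genes Wt1 ranked 1113 in replicate 1 and 1642 in replicate 2. It stood above 91.5% and 87.2% of the protein-coding genes with at least 1 TPM in the same library.

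Transcript by transcript, 3 models held most of the signal. Wt1-205, the full-length form with both inserts, had 54.07 TPM in replicate 1 (credibility bounds 48.8 to 55.3) and 30.55 TPM in replicate 2 (27.3 to 31.7). It was the highest transcript in both libraries, with 42.0% and 37.5% of the gene's level by the deposited isoform percent. Wt1-201, from exon 1a with KTS, had 36.82 TPM (31.5 to 40.4) and 26.37 TPM (22.1 to 29.3), or 28.6% and 32.4% of the gene. Wt1-202, from exon 1a without KTS, had 20.36 TPM (15.99 to 24.2) and 15.96 TPM (12.4 to 19.0), or 15.8% and 19.6%. The order Wt1-205, Wt1-201, Wt1-202 was the same in both libraries. The bounds of Wt1-201 and Wt1-202 did not overlap in either library, nor did those of Wt1-205 and Wt1-201 in replicate 1. In replicate 2 the bounds of Wt1-205 and Wt1-201 did overlap, so that pair could not be ordered there.

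The incomplete coding models were low and poorly determined. Wt1-204 was the one that differed most between libraries, with 5.34 TPM (0.628 to 8.88) in replicate 1 and 0 TPM in replicate 2, where the upper bound was 0.973 TPM. Wt1-207 had 1.38 TPM (0.447 to 3.05) and 0.26 TPM (0.0134 to 1.10). Wt1-203 was estimated at 0 TPM in both, with upper bounds of 2.89 and 1.02 TPM. In all 3 cases the bounds of the libraries overlapped.

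The retained-intron models made up 8.37% and 10.3% of the gene's level. Wt1-206, which starts just ahead of exon 1a, keeps the intron from there to exon 2 and ends in the intron after exon 3, had 4.48 TPM (3.80 to 4.93) in replicate 1 and 5.04 TPM (4.38 to 5.49) in replicate 2. It was the only Wt1 transcript with a higher value in replicate 2, 1.13 times that of replicate 1, although its bounds overlapped. Wt1-208, which starts in the intron ahead of exon 6, had 6.30 TPM (4.79 to 7.57) and 3.33 TPM (2.40 to 4.25), and its bounds did not overlap.

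**Figure D2:**
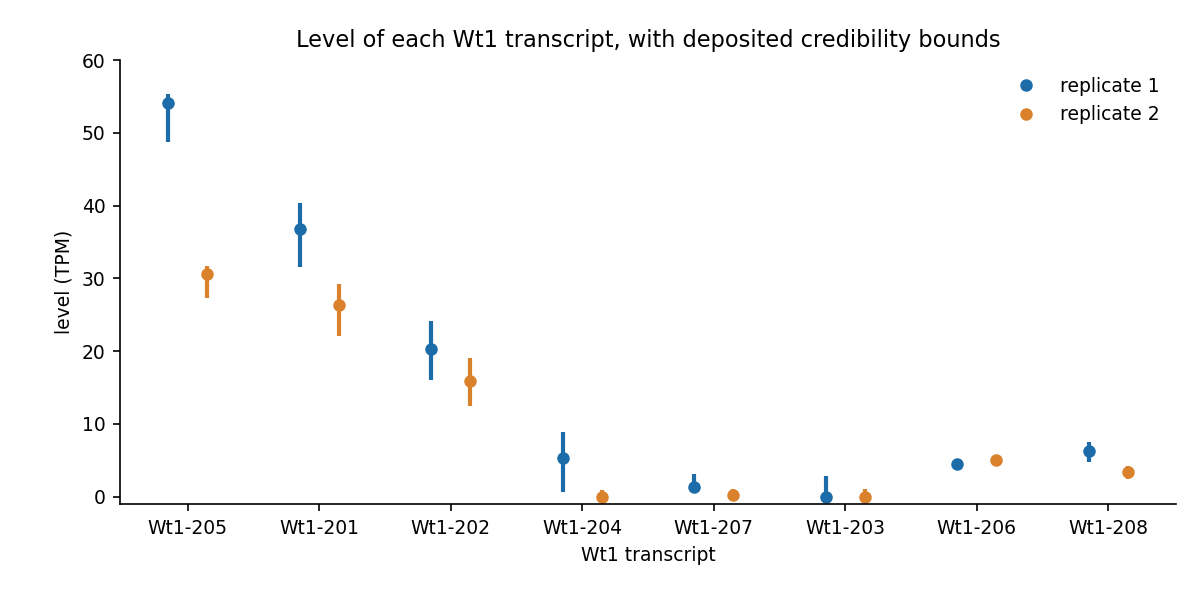
Level of each Wt1 transcript in TPM (vertical axis) in replicate 1 (blue, left of each pair) and replicate 2 (orange). Points are the maximum likelihood estimates and lines the deposited credibility bounds within 1 library; Wt1-205 leads at 54.07 and 30.55 TPM, and Wt1-206 is the one transcript whose point is higher in replicate 2.

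How well a model can be told from the others depends on the sequence it has to itself. The effective lengths in the tables are the lengths minus 99 nt, which is what a fixed fragment of 100 nt gives, so each model was cut into all its windows of 100 nt. Wt1-206 shared none of 2410 of its 2711 windows with another Wt1 model, Wt1-208 none of 513 of 842 and Wt1-205 none of 467 of 2991. Wt1-202 had 4 windows of its own out of 2342. Wt1-201, Wt1-203 and Wt1-204 had 0. Wt1-201 and Wt1-202 together had 101 windows found in no other model, 97 of them in both. The deposited standard deviations of the estimated counts followed this split only in part. They were 3.02 and 3.11 reads for Wt1-206 at counts of 236.75 and 307.65. For Wt1-201 they were 95.64 and 90.23 reads at counts of 1649.59 and 1363.67. Wt1-205, despite its own windows, had 82.95 and 64.87 reads at counts of 3156.03 and 2058.15. Wt1-203, with 0 such windows, had 19.98 and 8.25 reads at counts of 0. By this count of windows, nearly all sequence of Wt1-201 and Wt1-202 is shared with other models.

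Most Wt1 RNA was estimated to hold KTS in both libraries. Transcripts with KTS summed to 92.27 TPM in replicate 1 and 57.18 TPM in replicate 2, and transcripts without it to 25.70 and 15.96 TPM. The ratio of the form with KTS to the form without was 3.59 in replicate 1 and 3.58 in replicate 2, and the share with KTS was 78.2% in each. The libraries lay this close only on these TPM values. Over complete coding models alone the share was 81.7% in replicate 1 and 78.1% in replicate 2, and on expected counts it was 81.9% and 80.3%. No joint bound for the sum was used here. If every transcript stood at the deposited bound least or most in favour of KTS, the share would run from 71.0 to 85.9% in replicate 1 and from 71.2 to 83.6% in replicate 2. These ranges cover the estimate within a library, and the form with KTS was the larger across the whole of both. They hold for the annotated models only, none of which begins in exon 1 and holds exon 5 without KTS.

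Within exon 5 classes the libraries differed more. Among transcripts with exon 5, the share with KTS was 72.6% in replicate 1 and 65.7% in replicate 2. Among those without exon 5 it was 87.7% and 100%. The only model without both exon 5 and KTS is the incomplete Wt1-204, at 5.34 and 0 TPM. Over complete coding models that share is 100% by construction, so the contrast between exon 5 classes depends on which combinations are annotated. The form without KTS was carried by Wt1-202 together with Wt1-204 in replicate 1 and by Wt1-202 alone in replicate 2. Wt1-202 and Wt1-204 share 97 windows that no other model holds, out of 101 found only in models without KTS.

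Exon 5 was included more often than it was skipped. Transcripts with it summed to 74.43 TPM in replicate 1 and 46.51 TPM in replicate 2, and transcripts that pass from exon 3 or 4 to exon 6 without it to 43.54 and 26.63 TPM. The share with exon 5 was 63.1% and 63.6%, with a mean of 63.3% ± 0.352 (SD, n = 2). That small spread belongs to these TPM values. Over complete coding models alone the share was 66.9% in replicate 1 and 63.8% in replicate 2, and on expected counts it was 69.2% and 67.9%. The deposited bounds taken at their extremes allowed 54.0 to 70.9% in replicate 1 and 55.1 to 69.7% in replicate 2. The share with exon 5 was above an equal split throughout both ranges, which hold for the annotated models only. The ratio of transcripts with exon 5 to those without it was 1.71 in replicate 1 and 1.75 in replicate 2, below the ratio for KTS in both.

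Both first exons carried much of the estimated level. Transcripts that begin in exon 1 summed to 60.79 TPM in replicate 1 and 30.81 TPM in replicate 2, and those that begin in exon 1a to 57.18 and 42.33 TPM. On these models exon 1 was estimated to hold 51.5% of the transcripts with either first exon in replicate 1 and 42.1% in replicate 2. The ranges allowed by the bounds, 43.6 to 59.6% and 36.1 to 50.3%, overlapped each other, and both lay on both sides of an equal split. Wt1-205 alone, the model that begins at the annotated main start and is matched to a RefSeq transcript, held 39.7% ± 3.19 of the gene's level (SD, n = 2). Complete coding models of either start held 86.4% in replicate 1 and 89.4% in replicate 2.

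**Figure D3:**
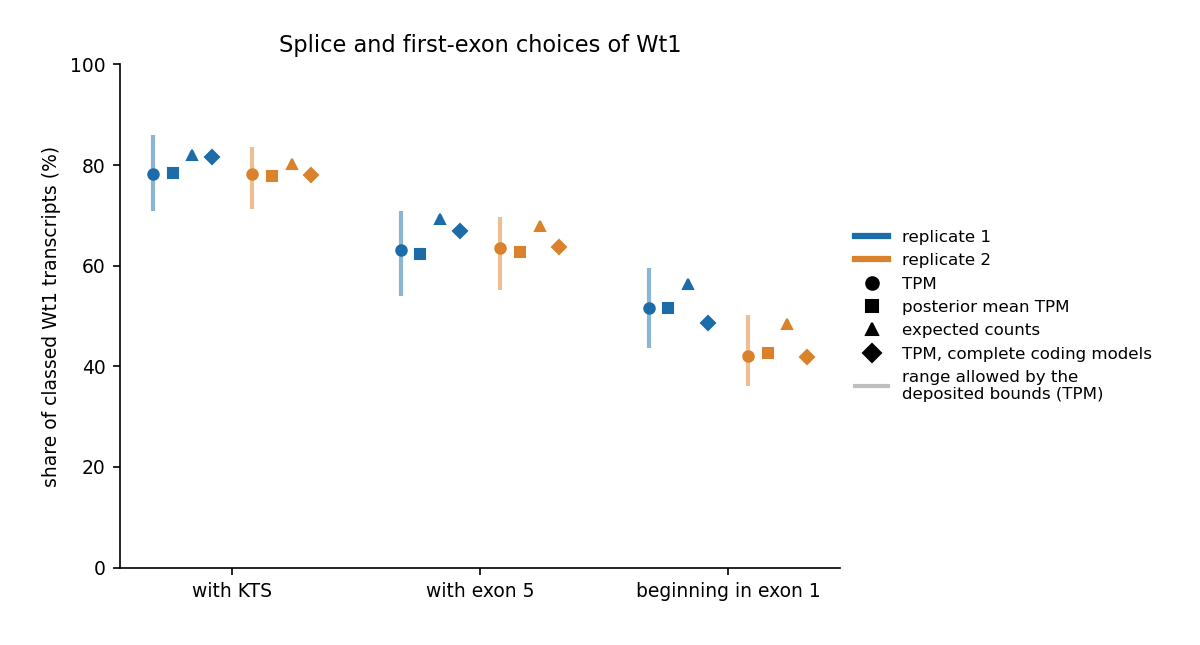
Share in percent (vertical axis) of classed Wt1 transcripts with KTS, with exon 5, and beginning in exon 1 among those with either first exon, in replicate 1 (blue) and replicate 2 (orange). Symbols give the share from TPM, posterior mean TPM, expected counts and complete coding models, and lines the range allowed by the deposited bounds; the KTS share is 78.2% in each library from TPM and 81.7% and 78.1% over complete coding models, whereas the exon 1 share is 51.5% and 42.1%.

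The 3 choices could not be measured independently of each other, because the annotation does not hold every combination of them. Of the 8 possible combinations of first exon, exon 5 and KTS, 5 have a model and 3 have a complete coding model. The missing ones are exon 1 with exon 5 and without KTS, exon 1a with both, and exon 1a with neither. For a transcript from exon 1 with exon 5 and without KTS, the only models with its exon 9 to exon 10 junction are Wt1-202, which begins in exon 1a, and Wt1-204, which lacks exon 5. A complete transcript with KTS and without exon 5 is represented only by Wt1-201. The level of exon 1a and the splice choices cannot be told apart in these models wherever a combination is missing. Exon 1a itself was tied to 97 windows shared by Wt1-201 and Wt1-202 alone and to 172 windows that Wt1-206 also holds.

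Wt1 stood lower in replicate 2, by more than the median gene of like length did. On TPM, Wt1 in replicate 2 stood at 0.633 times its level in replicate 1, a log2 ratio of -0.66. Across 12669 protein-coding genes with at least 1 TPM in both libraries the median log2 ratio was -0.32, and 22.7% of them lay below Wt1. The ratio moved with length over all genes, and in the decile of effective length that holds Wt1 (2365 to 2762 nt, 1266 genes) the median was -0.43, with 23.9% of the genes below Wt1. The part of length in the Wt1 difference was not tested. On counts scaled to the total on genes, the log2 ratio was -0.39, with an exact conditional binomial 95% interval of -0.45 to -0.34 that covers counting error only. In whole tissue, fewer cells with Wt1 RNA and less Wt1 RNA per cell cannot be told apart.

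Within the gene, the difference between libraries was not the same for every transcript. Of the transcripts with at least 1 TPM in both libraries, Wt1-208 had the lowest ratio, 0.529 times its replicate 1 level in replicate 2. Wt1-205 stood at 0.565 times, Wt1-201 at 0.716 times and Wt1-202 at 0.784 times, while Wt1-206 stood at 1.13 times. The part of model length in these ratios was not tested. The bounds of the libraries did not overlap for Wt1-205, Wt1-201 and Wt1-208 and did overlap for the other 5.

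**Figure D4:**
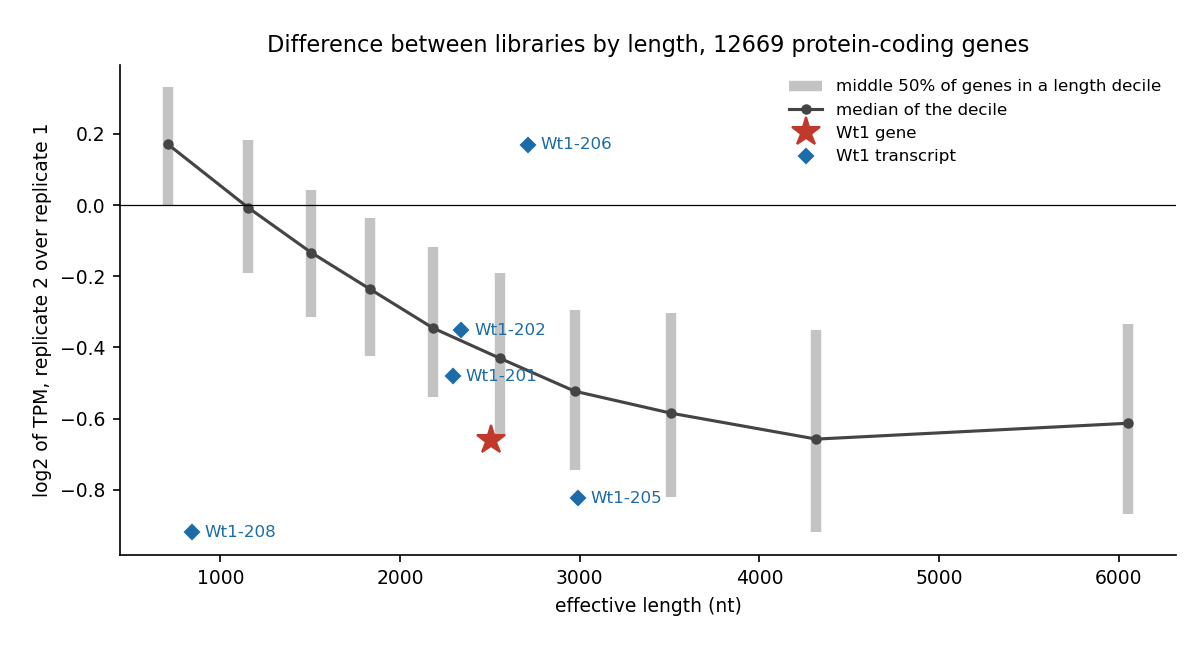
Log2 ratio of TPM in replicate 2 over replicate 1 (vertical axis) against effective length in nt (horizontal axis). Points joined by a line are the median and grey bars the middle 50% of the genes in each decile of length, the star is the Wt1 gene at -0.66 and blue diamonds are the 5 Wt1 transcripts with at least 1 TPM in both libraries; the decile medians are lowest among the longest genes, and Wt1-206 and Wt1-208 lie far from them on opposite sides.

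Genes that Wt1 is known to bind or regulate in nephron progenitors were mostly present. Of 21 genes on this list, 18 had at least 1 TPM in both libraries, against 59.0% of all protein-coding genes. The median of mean levels over all 21 was 19.2 TPM. It was 4.20 TPM over all protein-coding genes and 18.3 TPM over those that passed the same minimum. Cited1, a co-activator of uncommitted progenitors, had 131.49 and 141.27 TPM, Gas1, a membrane protein that supports growth factor signalling in progenitors, 112.7 and 109.78 TPM, and Eya1, which pairs a phosphatase domain with co-activator function, 72.47 and 52.23 TPM. Cited1 and Gas1 were the 2 genes of the list whose mean level exceeded that of Wt1. At the low end, Fgf16, a growth factor gene, had 0 counts in both libraries, and Areg, the gene for amphiregulin, had 3 and 2 counts.

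Podocyte genes that Wt1 is known to bind or regulate spanned a wide range of levels. Of 15, 13 had at least 1 TPM in both libraries, against 59.0% of all protein-coding genes. The median over all 15 was 7.98 TPM. It was 4.20 TPM over all protein-coding genes and 18.3 TPM over those that passed the same minimum. Tcf21, a transcription factor of podocytes and also of stroma, had 258.78 and 288.66 TPM and was the only one whose mean exceeded that of Wt1. Foxc2, a forkhead factor of the early podocyte, had 41.18 and 36.19 TPM and Cd2ap, an adaptor of the slit diaphragm, 37.16 and 23.84 TPM. The lowest were Scel at 1.68 and 0.89 TPM and Col4a3, a collagen chain of the mature glomerulus, at 0.98 and 0.51 TPM.

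Markers of the cell types that could carry Wt1 RNA differed widely in level. Of all protein-coding genes, 59.0% had at least 1 TPM in both libraries. All 7 markers of cap mesenchyme progenitors had at least 1 TPM in both libraries, and they summed to 386 TPM in replicate 1 and 350 TPM in replicate 2. All 6 podocyte markers did too, summing to 96.4 and 65.2 TPM. In replicate 2, 2 of 7 cap mesenchyme markers and 0 of 6 podocyte markers were higher, against 23.6% of expressed protein-coding genes. Of the mesothelium, which also uses Wt1, 6 of 7 markers were matched and 4 had at least 1 TPM in both libraries. They summed to 24.4 and 28.2 TPM, most of it from Krt19, a keratin that epithelia share, at 19.35 and 24.19 TPM. The mesothelial genes Msln and Upk3b stood at 2.03 and 1.10 TPM and at 1.03 and 1.13 TPM, while Bnc1 was the lowest at 0.070 and 0.10 TPM. Of the gonad, where Wt1 is needed for sex determination, 0 of 6 markers reached 1 TPM: they summed to 0.21 and 0.16 TPM, Foxl2, Cyp17a1 and Fshr had 0 counts in both libraries, and Nr5a1 was the highest at 0.18 and 0.090 TPM. The part of each cell type in the Wt1 level was not tested.

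Markers of compartments that are not known for Wt1 were present as well. The share of all protein-coding genes with at least 1 TPM in both libraries was 59.0%. All 5 markers of cortical stroma had at least 1 TPM in both libraries and summed to 499 and 381 TPM, led by Aldh1a2, an enzyme of retinoic acid synthesis, at 314.59 and 229.18 TPM. All 5 markers of the ureteric bud, the epithelium that branches into collecting ducts, did too, and summed to 344 and 286 TPM, from Calb1 at 164.16 and 167.65 TPM to Ret at 11.06 and 5.07 TPM. In all, 3 of 5 stromal markers and 1 of 5 ureteric markers were higher in replicate 2, against 23.6% of expressed protein-coding genes.

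Genes for proteins that partner with Wt1 were mostly detected in the same tissue. Of 15, 13 had at least 1 TPM in both libraries, against 59.0% of all protein-coding genes, with a median of 30.8 TPM. Trp53, the gene for p53, had 172.81 and 160.98 TPM, and Wtap, named for its association with Wt1 and part of the RNA methylation complex, 114.64 and 129.35 TPM. Both exceeded Wt1 in mean level. Basp1, which turns Wt1 from an activator into a repressor, had 18.41 and 34.93 TPM and was thus higher in replicate 2, with a log2 ratio of 0.92. The lowest were Trp73 at 0.60 and 0.17 TPM and Nr5a1.

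The splicing regulators on the list were all expressed. All 11 had at least 1 TPM in both libraries, against 59.0% of all protein-coding genes, and their median was 263 TPM. Srsf3, an SR protein, led at 801.4 and 868.12 TPM, with the heterogeneous nuclear ribonucleoproteins Hnrnpf at 647.13 and 454.56 TPM and Hnrnph1 at 489 and 463.62 TPM. The lowest were Rbm4, an RNA-binding protein that interacts with the KTS form, at 49.37 and 42.23 TPM, and Rbm15 at 11.09 and 9.20 TPM. Srsf1, a substrate of the kinase Srpk1, had 330.26 TPM in replicate 1 and 195.93 TPM in replicate 2. Whether these levels bear on the splice choices of Wt1 was not tested.

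**Figure D5:**
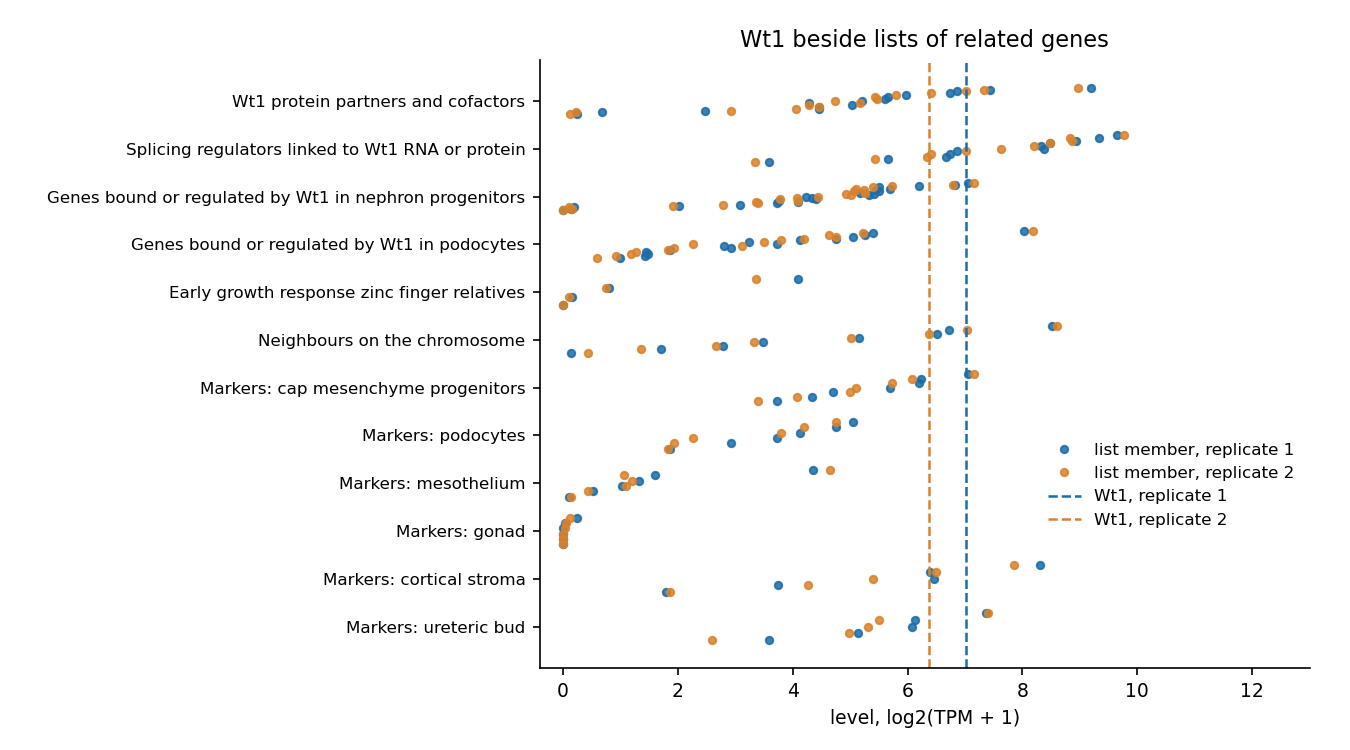
Level of each list member on a log2(TPM + 1) axis in replicate 1 (blue) and replicate 2 (orange), with 1 row of points per list and members ordered by level within it. Dashed lines give Wt1 at 128.74 and 81.51 TPM; the median splicing regulator, at 263 TPM, lies to the right of both, and all podocyte and gonad markers to the left.

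The genes most like Wt1 were those with the smallest distance from it in log2(TPM + 1) over the 2 libraries, among 21473 other protein-coding genes. They were Parp1, a DNA repair enzyme, at 130.07 and 83.46 TPM, Sec31a, a coat protein of secretory vesicles, at 129.74 and 83.54 TPM, and Becn1, an autophagy protein, at 125.35 and 80.99 TPM. Next came Bclaf1 at 125.17 and 81.0 TPM and Trim59 at 128.92 and 84.18 TPM. The distances lay between 0.0368 and 0.0460. With 2 samples this likeness says that the levels match and nothing more.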

How the data were processed

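The deposited tables were made by the submitters from a transcriptome alignment to mm10 with GENCODE release M4, per the deposited descriptions. No source used here names the aligner or the quantifier; the column names match those of RSEM output. The authors' deposited expected counts are estimated reads per feature. The deposited TPM values, maximum likelihood and posterior mean, are scaled over all features, spike-ins included, and the deposited FPKM values to effective length and depth. The deposited credibility bounds are a signal on the TPM scale, and the deposited isoform percent is a transcript's share of its gene.

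Transcript structures came from GENCODE release M21 on GRCm38, the assembly of mm10. All 8 Wt1 transcripts had the same length there as in the tables. Wt1-209, a model of that release, is not used here. Exon 5 was scored among transcripts that pass from exon 3 or 4 to exon 6. The first exon was scored by its donor site. Symbols were matched by gene ID, and 1 list member (Muc16) found no match. The depth was 29718428 and 29204212 expected counts. Shares are sums of TPM. The window of 100 nt was taken from the effective lengths. Expected counts were rounded to whole numbers for TMM factors (edgeR 4.0.16, R 4.3.3), whose script was tested on simulated data. Tables were handled in pandas 2.3.3, numpy 2.4.6 and Python 3.11.15, intervals came from scipy 1.17.1, translation from Biopython 1.88 and plots from matplotlib 3.10.9.

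The members and lists were chosen with earlier results of these data known. The rule for naming genes took Wt1 and its transcripts, the 3 members with the highest level and the 2 with the lowest in every list, the nearest genes on each side, and the 5 genes closest in level. Other list members named above or below (Basp1, Srsf1, Upk3b and Foxl2 with the other gonad genes at 0) were chosen after their values were seen. Some list members that the rule would name are not reported here.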

Additional observations from a re-analysis of the deposited data

How the results depend on the processing

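No paired analysis was possible because the series holds 1 group. The Wt1 level ran from 81.5 to 129 TPM when 1 replicate was left out. The log2 ratio of replicate 2 over replicate 1 kept its sign but moved to -0.43 on FPKM, -0.39 on counts scaled to genes, -0.59 on counts scaled to spike-ins, -0.31 with TMM factors and -0.23 relative to genes of the same length decile. The KTS share, 78.2% on TPM, became 78.1% on posterior mean TPM, 81.1% on expected counts, 69.2% within exon 5 transcripts, 93.9% within those without exon 5 and 79.9% over complete coding models. The exon 5 share, 63.3%, became 62.6%, 68.6%, 56.0% within KTS transcripts, 89.6% within those without KTS and 65.4% over complete coding models, in the same order. Shares within a class of the other choice rest on the few combinations that the annotation holds. The share in complete coding transcripts, 87.9%, became 91.9% on expected counts and 96.97% among coding transcripts, and that of Wt1-205, 39.7%, became 47.4% and 43.8%. Shares over complete coding models, and that of all transcripts from exon 1 (42.5%), were added after the data were seen. With 1 replicate left out, these 4 shares ran from 78.18 to 78.21%, 63.1 to 63.6%, 86.4 to 89.4% and 37.5 to 42.0%. Of 71 alternatives, 20 moved a value beyond the spread or interval it was held to. Leaving out 1 of 2 libraries cannot do so by arithmetic, and keeping only models of equal length removed none, so these say nothing of stability. Expected counts are not divided by length, and Wt1-205 is the longest model. The part of length in the shifts above was not tested, nor was any other cause. Of 93 matched list members, which include the noncoding Wt1os, 75 had at least 1 TPM in both libraries, against 59.0% of all protein-coding genes. The count was 78 at 0.5 TPM, 63 at 5 TPM and 77 on posterior mean TPM.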

Other observations

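The region around Wt1 held genes at very different levels. Wt1os, a noncoding gene on the opposite strand (ENSMUSG00000074987.5, chromosome 2, 105076538 to 105126510 in mm10), has its 5′ end 18 nt from the start of Wt1 and does not overlap it. It had 10.24 TPM in replicate 1 and 9.04 TPM in replicate 2, from 278 and 265 counts, so Wt1 was 12.6 and 9.02 times higher. On the other side the nearest gene with a deposited value was Them7, 50703 nt away, at 0.70 and 1.04 TPM, and the nearest protein-coding gene on the Wt1os side, Gm11060, had 0 counts in both libraries. Farther out, Eif3m, a subunit of a translation initiation factor, stood at 364.77 and 388.84 TPM, Immp1l, a mitochondrial peptidase subunit, at 105.01 and 130.65 TPM and Rcn1, a calcium-binding protein of the endoplasmic reticulum, at 89.81 and 82.39 TPM. Pax6, the eye and forebrain regulator that is deleted together with Wt1 in the human WAGR syndrome, had 4 and 16 counts, at 0.10 and 0.35 TPM, and Prrg4 had 2.25 and 1.56 TPM. Of the 8 genes on the list of neighbours, which holds neither Them7 nor Gm11060, 7 had at least 1 TPM in both libraries, against 59.0% of all protein-coding genes. The 7 include the noncoding Wt1os, which that share does not cover.

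The early growth response genes encode zinc-finger factors whose DNA-binding domain is related to that of Wt1. Of the 4, 1 had at least 1 TPM in both libraries, against 59.0% of all protein-coding genes. Egr1 stood at 16.01 TPM in replicate 1 and 9.31 TPM in replicate 2, Egr2 at 0.75 and 0.68 TPM, Egr3 at 0.12 and 0.070 TPM, and Egr4 had 0 counts in both. Wt1 was 8.04 and 8.76 times as high as Egr1.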
